A study of Mus musculus with 2 samples.

Results

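The 34 genes described here encode the enzymes and transporters of glycolysis, the lactate and pyruvate steps that follow it, and the oxygen-sensing factor HIF1 with a few of its regulators and targets. They were listed by name, not by their values but with earlier results known, and were matched by gene symbol through the gene identifier. They are 34 of 55536 annotated genes, of which 22028 are protein-coding. A second identifier that carries the symbol Aldoa had 0 counts in both libraries and was not used. The values come from the nuclear fraction, in the labels also called nucleoplasmic, of macrophages grown from the bone marrow of mice of the strain C57BL/6J, whose total RNA was sequenced after ribosomal RNA was depleted. The study held 1 group of 2 libraries: all cells were treated with 100 ng/ml Lipid A for 12 h, washed and left for a further 12 h, and then treated a second time with 100 ng/ml for the final 40 min. Lipid A is the membrane anchor of bacterial endotoxin and the ligand of the receptor TLR4. No untreated or singly treated cells were analysed here, so the values are levels in restimulated cells and not a response. Genotype beyond the strain, age and sex are not given in the labels, and both libraries carry the same donor entry, so the spread between them may be technical.

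Glycolysis turns glucose into pyruvate in the cytosol, and most of its steps can be run by several isozymes encoded by separate genes. Macrophages activated through TLR4 are known to raise glycolysis and to convert much of the pyruvate to lactate. HIF1 is a transcription factor made of a regulated alpha subunit, encoded by Hif1a, and a constant partner. Its alpha subunit is marked for destruction by oxygen-dependent prolyl hydroxylases, and most glycolytic enzymes are known targets. Nuclear RNA holds newly made and incompletely processed transcripts beside finished mRNA, so its levels need not follow those of the cytosol.

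Library 1 held 19797829 expected counts on genes and library 2 held 17213606. The labels give an RNA input of 1 µg for the first and 500 ng for the second, and input and replicate number cannot be told apart. Mitochondrial transcripts took 2.63% of counts in library 1 (Wilson 95% interval 2.62 to 2.63%) and 6.60% in library 2 (6.59 to 6.61%). All 10 macrophage markers examined were detected, with a summed level of 3182 TPM in the first library and 2527 TPM in the second. TPM is a level divided by transcript length and scaled to the same sum in each library. None of the 5 markers of muscle, a possible source of the muscle isozymes, had a count in either library, and none of the 4 neuron and glia markers was detected, with 3 of them at 0. Of the 6 T cell markers only Cd4 was detected, and Cd3e and Cd3g were at 0. Of the 3 megakaryocyte markers Pf4 was detected at 13.9 and 20.8 TPM, and of the 4 endothelial markers Kdr at 12.8 and 9.59 TPM and Pecam1 at 1.94 and 1.14 TPM. No B cell, NK cell, neutrophil, mast cell, erythroid or fibroblast marker was detected. The part of other cell types in the levels below was not tested. In such bulk samples fewer cells of a type and less RNA per cell cannot be told apart.

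Detection required at least 10 expected counts in each library, and 30 of the 34 genes met it, against 49.9% of all protein-coding genes. The 4 others were Aldoc, Ldhb, Pdk4 and Egln3. Ranked by mean TPM among the protein-coding genes detected, 4 of the 34 lay in the highest 10%: the hexokinase gene Hk3, the sugar transporter gene Slc2a6, the pyruvate kinase gene Pkm and Gapdh. A total of 18 lay above the median of detected protein-coding genes, where 50% lie. The median of all 34 was 10.8 TPM, against 6.38 TPM for detected protein-coding genes. By mean TPM their median percentile among those genes was 63.1. Ranked by the TPM of 1 library among the same genes, it was 64.0 in library 1 and 57.7 in library 2, with an SD of 4.49 between these values.

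**Figure D1:**
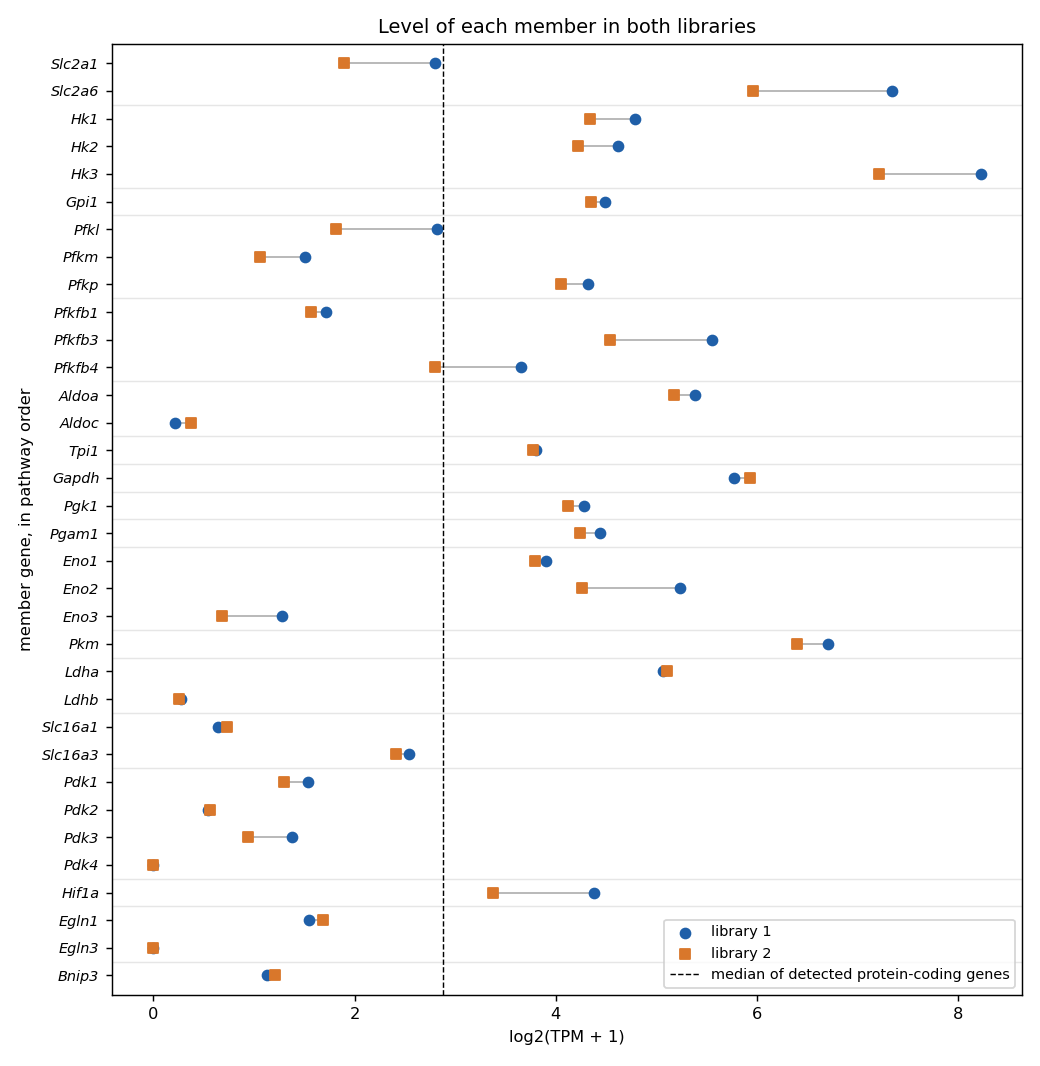
Level of each of the 34 genes in library 1 (circles) and library 2 (squares) as log2(TPM + 1), in pathway order, with the median of detected protein-coding genes as a dashed line. Hk3, Slc2a6 and Pkm lie farthest to the right, and Pdk4 and Egln3 lie at 0.

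A set of 3 promoters, searched for the known HIF1 core, and a pair of alternative exons of Pkm are printed first. The core of the element that HIF1 is known to bind reads ACGTG or GCGTG, and both were searched on both strands, where they read CACGT and CACGC. In RefSeq windows of 250 bases before to 50 bases after each start (build GRCm38.p6), all 34 genes matched, with 51 windows that partly overlap within a gene. ACGTG was found in 47.1% of these windows and in 19.6% of all 32851 windows of that length, and GCGTG in 52.9% and 32.4%. Either core was found in 76.5% of the 51 windows and in 43.8% of all. The palindrome CACGTG, which contains ACGTG on both strands and is also the E-box core, was found in 13.7% and 7.15%. The median content of G and C was 60.7% in the 51 windows and 52.7% in all, and the windows were not matched for it. A match describes letters and shows no binding.

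The 250 bases before the start are given below for Ldha, the lactate dehydrogenase gene whose window held the most ACGTG matches, and for the most abundant of the 34, Hk3 and Slc2a6. Capitals mark ACGTG and GCGTG on either strand. The first of the 2 Ldha windows (chr7:46845554-46845803, plus strand) held 5 ACGTG matches counted over both strands, from which the pair of CACGTG palindromes gives 4. Hk3 (chr13:55021386-55021635, minus strand) held 1 ACGTG match and no GCGTG. Slc2a6 (chr2:27027999-27028248, minus strand) held 4 GCGTG matches and no ACGTG.
Ldha promoter: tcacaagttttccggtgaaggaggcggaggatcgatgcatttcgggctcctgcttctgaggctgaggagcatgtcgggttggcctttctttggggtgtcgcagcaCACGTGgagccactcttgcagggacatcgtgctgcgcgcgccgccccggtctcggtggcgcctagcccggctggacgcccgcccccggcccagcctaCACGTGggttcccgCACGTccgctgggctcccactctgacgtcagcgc
Hk3 promoter: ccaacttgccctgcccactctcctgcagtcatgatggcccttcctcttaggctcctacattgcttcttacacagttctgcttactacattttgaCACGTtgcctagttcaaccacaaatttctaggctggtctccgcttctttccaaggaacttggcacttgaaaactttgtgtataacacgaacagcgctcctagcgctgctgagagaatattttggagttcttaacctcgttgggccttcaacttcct
Slc2a6 promoter: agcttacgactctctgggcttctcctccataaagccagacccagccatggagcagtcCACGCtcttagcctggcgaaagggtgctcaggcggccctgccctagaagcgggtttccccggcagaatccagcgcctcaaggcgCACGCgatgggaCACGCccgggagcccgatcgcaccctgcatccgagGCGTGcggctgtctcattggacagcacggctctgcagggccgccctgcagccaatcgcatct

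Pkm encodes the muscle-type pyruvate kinase, whose transcripts carry either of a pair of mutually exclusive exons and give the M1 or the M2 enzyme. M2 is the form known from proliferating cells and activated macrophages. The M1 exon lies at chr9:59675029-59675195 and the M2 exon at chr9:59675568-59675734 (mm10, plus strand). Each is exon 9 of the 11 exons of its transcript and is 167 bases long. Capitals mark the 64 positions at which the aligned exons differ, which leaves an identity of 61.7%.
Pkm M1 exon: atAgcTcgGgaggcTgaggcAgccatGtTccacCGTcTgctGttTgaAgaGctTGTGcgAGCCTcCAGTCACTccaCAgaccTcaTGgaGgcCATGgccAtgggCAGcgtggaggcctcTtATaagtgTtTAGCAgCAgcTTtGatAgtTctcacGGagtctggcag
Pkm M2 exon: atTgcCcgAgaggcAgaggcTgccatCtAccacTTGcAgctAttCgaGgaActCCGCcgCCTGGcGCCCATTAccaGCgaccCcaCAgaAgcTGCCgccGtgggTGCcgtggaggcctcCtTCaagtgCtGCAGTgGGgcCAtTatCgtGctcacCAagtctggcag

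The transcript with the M2 exon, Pkm-201, stood at 70.8 TPM in library 1 and at 68.5 TPM in library 2. The transcript with the M1 exon, Pkm-202, stood at 13.0 and 5.59 TPM. The M2 form therefore held 84.4% of both forms together in library 1 and 92.5% in library 2, and 85.3% and 93.0% by kallisto, a second program whose tables were deposited for the same libraries. Pkm-205, annotated as a retained intron, stood at 15.5 and 7.15 TPM. The M2 form was the larger in both libraries and by both programs. The whole gene (chromosome 9, 59656368 to 59679375, mm10) stood at 104 and 83.7 TPM. It shares exonic sequence on its own strand with Gm49759, which held 1059 and 802 counts, so its count may include or miss reads of that gene.

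Glucose entry was represented by a pair of transporters. Slc2a6, which encodes GLUT6, a transporter found mainly on intracellular membranes, stood at 162 TPM in library 1 and at 61.3 TPM in library 2 (chromosome 2, 27021363 to 27027998, mm10). Slc2a1, which encodes the widely used plasma-membrane transporter GLUT1, stood at 5.98 and 2.73 TPM. Slc2a6 thus held 96.4% and 95.7% of the summed level of the pair. Slc2a1 lay below the median of detected protein-coding genes in both libraries, at percentiles 45.6 and 32.5. Both transporters of the pair were lower in library 2, as described further on.

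Hexokinase traps glucose as glucose 6-phosphate, and its 3 listed genes were all detected. Hk3, the isozyme typical of myeloid cells, was the highest of the 34 genes at 299 and 148 TPM, from 14507 and 7289 counts (chromosome 13, 55005985 to 55021385, mm10). Hk1, the housekeeping isozyme, stood at 26.6 and 19.3 TPM. Hk2, the inducible isozyme known as a HIF1 target, stood at 23.7 and 17.7 TPM. Hk3 held 85.6% and 79.9% of hexokinase, Hk1 7.60% and 10.5%, and Hk2 6.77% and 9.59%. The ranges of Hk1 and Hk2 overlapped, and both lay below that of Hk3. Hk3 overlaps exons of Unc5a on the opposite strand, at 796 and 448 counts. Whether counting used the strand is not given in the sources used here.

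Gpi1, which converts glucose 6-phosphate to fructose 6-phosphate, stood at 21.4 and 19.5 TPM. Phosphofructokinase, the committed step, was led by the platelet-type gene Pfkp at 19.0 and 15.6 TPM. The liver-type Pfkl stood at 6.06 and 2.51 TPM and the muscle-type Pfkm at 1.85 and 1.08 TPM. Pfkp held 70.6% of the step in library 1 and 81.3% in library 2. The 3 isozymes kept the same order in both libraries, with no overlap between their ranges. Over coding transcripts alone the order was kept, but the ranges of Pfkl (3.14 and 1.46 TPM) and Pfkm (1.84 and 1.09 TPM) overlapped. Pfkm, with 104 and 65 counts, shares exonic sequence on its own strand with Gm26513, at 114 and 74.2 counts. It also overlaps exons of Senp1 on the opposite strand, at 1346 and 983 counts. Most of the Pfkp level was in transcripts annotated as retained introns, as given below.

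The PFKFB enzymes make and remove fructose 2,6-bisphosphate, the allosteric activator of phosphofructokinase. Pfkfb3, the form with the highest kinase activity and a known HIF1 target, stood at 46.0 and 22.3 TPM. Pfkfb4 stood at 11.6 and 5.98 TPM and Pfkfb1, the liver and muscle form, at 2.28 and 1.96 TPM. Pfkfb3 held 76.8% and 73.8% of the 3, and Pfkfb4 19.4% and 19.7%. Pfkfb1, with 45 and 50 counts, overlaps exons of Apex2 on the opposite strand, at 458 and 364 counts.

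The steps from aldolase to phosphoglycerate mutase were led by 1 gene each. Aldoa, the ubiquitous aldolase, stood at 40.7 and 35.1 TPM, while Aldoc, the brain form, had 4 and 7 counts. Aldoa held 99.6% and 99.2% of the pair. Triose phosphate isomerase, encoded by Tpi1, stood at 13.0 and 12.7 TPM. Gapdh, the enzyme that reduces NAD+ in the pathway, stood at 53.6 and 59.9 TPM (chromosome 6, 125161715 to 125166467, mm10). Pgk1, which makes the first ATP of the payoff phase, stood at 18.5 and 16.4 TPM, and Pgam1, the mutase that follows, at 20.7 and 18.0 TPM. Of these single-gene steps, Gapdh was the highest in both libraries and Tpi1 the lowest.

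Gapdh has the most near-identical copies of the 34 genes, and reads may be shared among them. A search of the annotated transcripts at 90% identity over at least 50% of the leading coding transcript found 171 pseudogene copies of it. Together they held 515 and 442 counts, equal to 45.2% and 33.2% of the 1141 and 1328 counts of Gapdh itself. By kallisto they held 1248 and 1122 counts. Gapdh also overlaps exons of Iffo1 on the opposite strand, at 1122 and 569 counts. Pseudogene copies of Pgk1 held 55.8 and 46.8 counts, or 8.73% and 8.11% of those of Pgk1. Counted over all 34 genes, 9 overlap exons of a detected gene. In all, 8 had pseudogene copies, 198 in number, and for the other 6 the copies held at most 0.389% of the gene's own expected counts. By kallisto the pseudogene copies of Pgk1 held 125 and 50.4 counts, against 670 and 868 for Pgk1. Those of Ldha held 41.7 and 40.6 by kallisto, against 1094 and 1421 for Ldha. Eno1b, a protein-coding copy of Eno1, held 9.87 and 29.6 expected counts, against 509 and 525 for Eno1.

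Enolase was split between a pair of genes. Eno2, best known as the enolase of neurons, stood at 36.7 TPM in library 1 and at 18.2 TPM in library 2. Eno1, the ubiquitous enolase, stood at 14.0 and 12.9 TPM, and the muscle form Eno3 at 1.43 and 0.61 TPM. Eno2 was higher than Eno1 in both libraries and held 70.4% and 57.3% of the step, against 26.9% and 40.7% for Eno1. This order was not kept when only transcripts annotated as coding were counted. Over coding transcripts alone Eno2 stood at 16.6 and 7.95 TPM and Eno1 at 12.2 and 12.8 TPM, so that the order differed between the libraries and the ranges overlapped. The neuron markers Rbfox3, Tubb3 and Snap25 were at 0 in both libraries.

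Lactate dehydrogenase was almost wholly Ldha, the form that favours lactate, at 32.5 and 33.4 TPM. Ldhb, the heart form, had 5 and 4 counts, and Ldha held 99.4% of the pair in both libraries. Of the lactate exporters, Slc16a3, which encodes the low-affinity carrier MCT4, stood at 4.82 and 4.31 TPM. Slc16a1, which encodes MCT1, stood at 0.56 and 0.66 TPM. Slc16a3 held 89.6% and 86.7% of the pair.

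Pyruvate dehydrogenase kinases inhibit the entry of pyruvate into mitochondria-based oxidation, and all 4 were low. Pdk1, the classical HIF1 target among them, stood at 1.91 and 1.46 TPM, Pdk3 at 1.60 and 0.92 TPM and Pdk2 at 0.46 and 0.48 TPM. Pdk1 held 48.1% and 51.0% of the step and Pdk3 40.3% and 32.2%, and their ranges overlapped. Over coding transcripts alone Pdk3 led, at 1.32 and 0.68 TPM against 0.57 and 0.46 TPM for Pdk1. Pdk4 had 0 expected counts in both libraries, which allows a level of up to 0.109 and 0.105 TPM from 3 counts. The other program gave Pdk4 44.9 and 64.1 counts, so its level depends on the program.

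**Figure D2:**
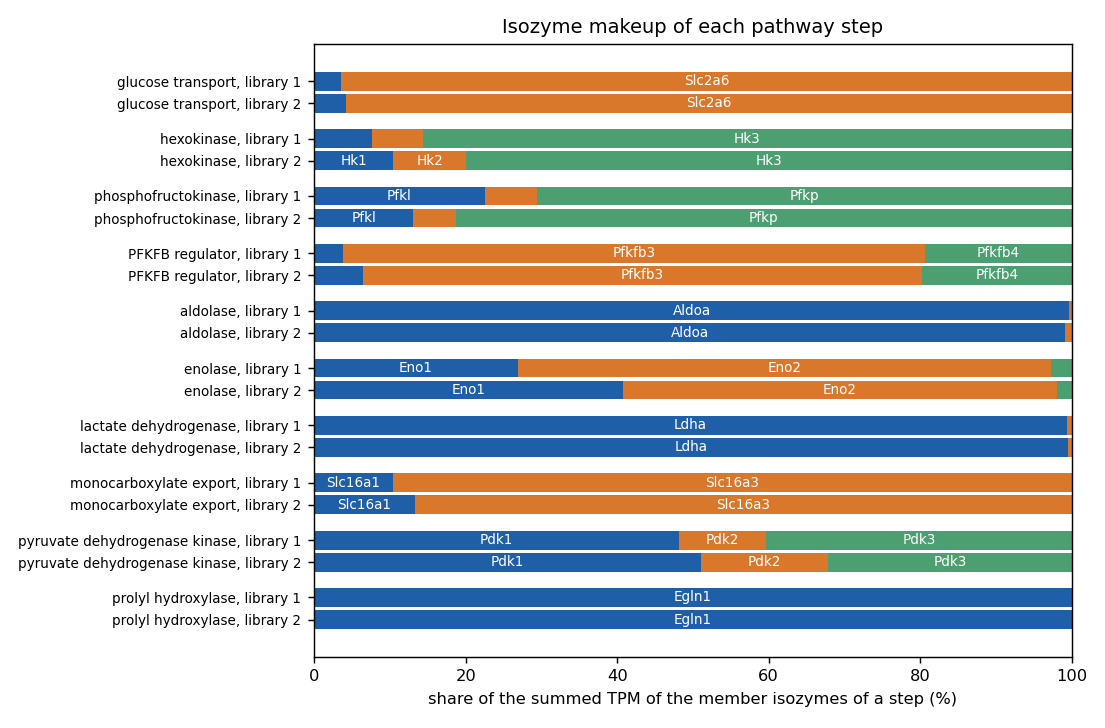
Share of the summed TPM of each pathway step held by each of its listed genes, in percent, with 1 bar per library. The leading gene of all 10 steps was the same in both libraries, and the splits of enolase and phosphofructokinase differ most between the bars.

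Hif1a, the regulated subunit, stood at 19.8 TPM in library 1 and at 9.39 TPM in library 2 (chromosome 12, 73901375 to 73947530, mm10). Its leading transcript, the coding Hif1a-201, held 40.3% and 48.9% of that level. Of the listed prolyl hydroxylases that mark the subunit, Egln1, which encodes the main oxygen sensor PHD2, stood at 1.93 and 2.23 TPM. Egln2, a further prolyl hydroxylase gene from the oxygen-sensing list below, was higher than Egln1 in both libraries, at 12.6 and 6.73 TPM. Egln2 was named after its value was seen. Egln3, which encodes PHD3 and is itself a known HIF1 target, had 0 counts in both libraries, which allows up to 0.0570 and 0.0543 TPM. Bnip3, a HIF1 target that acts in mitochondrial removal, was low at 1.19 and 1.32 TPM, from 25.2 and 46 counts. On the length-scaled TPM, Hif1a was above Egln1, Egln2, Egln3 and Bnip3 in both libraries, but its range overlapped that of Egln2.

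With 2 libraries, the order of levels was judged only by whether the ranges overlap. Hk3 and Slc2a6 overlapped with each other, Slc2a6 with Pkm, and Pkm lay above Gapdh in both libraries. Gapdh lay above Aldoa. The 13 genes from Aldoa down to Tpi1 formed a chain in which each range overlapped the next, from a mean of 37.9 to 12.9 TPM. Pfkfb4 followed at a mean of 8.81 TPM, with a range that overlapped that of Hif1a above it and that of Pfkl below it. No other listed gene reached a mean of 5 TPM.

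Nuclear RNA can carry transcripts that are not annotated as coding, and these made up very different parts of the level of each gene. Shares were computed for the 22 genes with 100 or more counts in both libraries. The median share of coding transcripts was 70.2% in library 1 and 81.9% in library 2, against 75.3% and 78.9% for all protein-coding genes at that depth. By kallisto it was 71.9% and 74.7%, against 63.0% and 66.5%, so its place relative to all genes in library 1 depends on the program. The median share of retained-intron transcripts was 11.3% and 4.61%, against 13.4% and 9.93%. A retained intron and one not yet spliced out cannot be told apart from these values. Counted by gene, the coding share was higher in library 2 for 12 of the 22, where 50.1% of all such genes were.

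For 3 of the 22 genes more than 50% of the level was in transcripts not annotated as coding in both libraries, against 15.2% of all protein-coding genes at that depth. These were Slc2a6, Pfkp and Eno2. Coding transcripts held 33.8% and 23.3% of Slc2a6, and the remainder was in processed transcripts, chiefly Slc2a6-203 with 36.1% and 37.0% and Slc2a6-205 with 28.9% and 39.1%. Its main coding transcript, Slc2a6-201, held 30.8% and 22.8%. Coding transcripts held 26.7% and 26.1% of Pfkp, with all of the remainder in retained introns, led by Pfkp-212 with 25.9% and 27.2%. They held 45.2% and 43.8% of Eno2, with 49.2% and 56.2% in retained introns, led by Eno2-203 with 21.8% and 29.0%. By kallisto the coding share of Slc2a6 was 50.1% and 35.3%, that of Pfkp 37.8% and 40.1%, and that of Eno2 46.6% and 41.7%. By that program 5 of the 22 genes were past the line in both libraries, against 27% of all such genes. Slc2a6 was no longer among them, and Hk3, Pfkl and Pfkfb4 joined Pfkp and Eno2.

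Hk3 held 54.4% and 47.6% in coding transcripts, and 45.8% and 39.7% by kallisto. The coding share of Pfkl was 51.9% and 58.2%, or 35.6% and 49.2% by kallisto, and that of Pfkfb4 was 58.8% and 68.7%, or 33.7% and 33.2%. The main coding transcript of Hk3, Hk3-208, held 43.7% and 37.4%. Hk3-204, annotated as a target of nonsense-mediated decay, held 23.1% and 27.6%, and the short processed transcript Hk3-205 held 20.1% and 20.5%. Over coding transcripts alone Hk3 still stood highest among the hexokinases, at 163 and 70.3 TPM.

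The common enzymes of the steps from aldolase to lactate dehydrogenase carried mostly coding transcripts. The coding share was 97.8% and 99.3% for Ldha, 99.4% and 95.2% for Pgk1, 95.7% and 100% for Pgam1, and 91.4% and 97.6% for Tpi1. It was 87.7% and 92.1% for Aldoa, 88.8% and 91.5% for Gapdh, 87.2% and 99.0% for Eno1, and 84.4% and 90.4% for Pkm. By kallisto the coding share of Eno1 was only 57.7% and 72.8%, with 42.3% and 27.2% in retained introns. For the others of these enzymes the kallisto coding share lay between 82.2% and 98.4%. Gpi1, the isomerase upstream of them, differed, with coding shares of 61.8% in library 1 and 35.2% in library 2. Its share in transcripts annotated for nonsense-mediated decay was 4.76% and 48.7%, and 18.1% and 42.1% by kallisto.

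**Figure D3:**
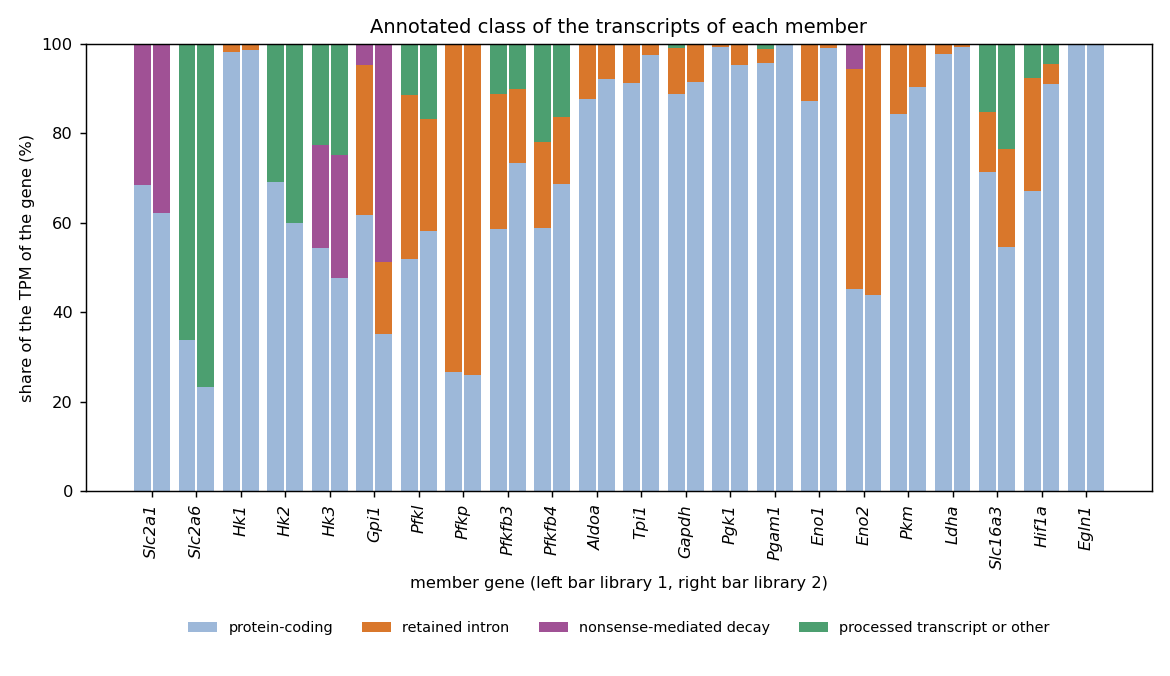
Share of the TPM of a gene in each annotated transcript class, in percent, for the 22 genes with 100 or more counts in both libraries, left bar library 1 and right bar library 2. Slc2a6 is mostly processed transcript, Pfkp and Eno2 hold the largest retained-intron shares, and Ldha, Pgk1 and Pgam1 are almost all coding. The shares shown are not those of kallisto.

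The libraries differed in level, and the difference was not the same for all of the genes. It is given as log2 of (TPM + 1) in library 2 over library 1, with the median over protein-coding genes that were detected set to 0, which removes a shift of -0.27. The median of the 30 detected genes was 0.019, with 14 below 0 and 16 above. Slc2a6 alone was over 2-fold apart after centring, at -1.11, where 0.864% of detected protein-coding genes were as far lower and 0.737% as far higher. By kallisto its value was -0.56 and none of the 30 was over 2-fold apart. With 1 library on each side there is no p-value for any of these differences.

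A total of 8 of the 30 had a centred value below -0.5, where 10% of detected protein-coding genes had one. That limit was chosen after the values were seen. These were Slc2a6 at -1.11, Hk3 and Pfkfb3 at -0.74, Pfkl and Hif1a at -0.73, Eno2 at -0.70, Slc2a1 at -0.63 and Pfkfb4 at -0.58. They are the glucose transporters, the leading hexokinase, the leading PFKFB enzymes, a phosphofructokinase and an enolase, together with the HIF1 subunit. All 8 were also below 0 by kallisto, from -0.20 to -0.94, after a shift of 0.59 of the opposite sign was removed. Before that centring 6 of the 8 had a higher kallisto TPM in library 2, so here too the direction holds relative to the median gene only. All 8 were below 0 by expected counts not divided by length, from -0.32 to -1.03.

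In contrast, the 9 enzymes Gpi1, Aldoa, Tpi1, Gapdh, Pgk1, Pgam1, Eno1, Pkm and Ldha lay between -0.03 and 0.43, with a median of 0.14. This grouping, the common enzyme of each step from Gpi1 to Ldha without phosphofructokinase, was also made after the values were seen. Of the 9, 8 were above 0, with Pkm at -0.03, and all 9 were above 0 by kallisto and by expected counts. Before centring, 7 of the 9 had a lower TPM in library 2, while by kallisto all 9 had a higher one, so the direction holds relative to the median gene only. The other 21 detected genes lay between -1.11 and 0.42, with a median of -0.17. The 9 enzymes and the 8 lowest genes were grouped after the values were seen. Their contrast therefore cannot show a pattern along the pathway. Pfkp, Hk1 and Hk2 were in neither group, at 0.006, -0.17 and -0.12. Enolase was in both, with Eno1 at 0.16 and Eno2 at -0.70. With no replicate of either RNA input, any difference moves with input and with the mitochondrial share of counts, whose part was not tested.

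**Figure D4:**
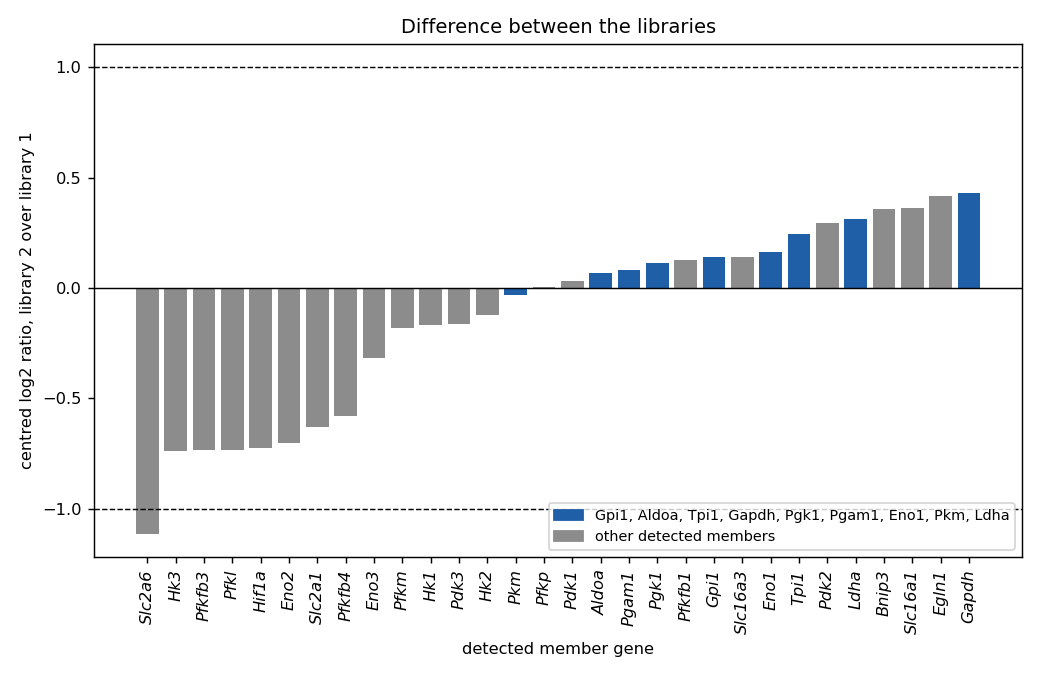
Centred log2 ratio of library 2 over library 1 for the 30 detected genes, in order of size, with the 2-fold limits as dashed lines. The 9 common enzymes from Gpi1 to Ldha lie between -0.03 and 0.43, and Slc2a6 lies below -1.

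Genes with a larger non-coding share tended to have a lower centred value. Across the 22 genes with shares, Spearman's rho of the centred value with the mean non-coding share of both libraries was -0.59, and it was -0.24 across 7640 protein-coding genes. By kallisto the values were -0.45 and -0.10. These are descriptions across genes, which share the libraries and are not independent, and the share and the ratio are computed from the same TPM. For Hif1a the values by class were as follows: its short retained-intron transcript Hif1a-204 held 25.4% of its TPM in library 1 and 4.47% in library 2, from 52.6 and 4.52 counts. By expected counts, which are not divided by transcript length, the centred value of Hif1a was -0.32 in place of -0.73. Pfkfb3 moved likewise, from -0.74 to -0.40, while Hk3 stayed at -0.72 and Slc2a6 at -1.03.

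Other genes of glucose use and oxygen sensing were taken from lists of pathway genes. Of 19 isozymes and carriers outside the 34, 10 were detected and none lay in the top 10%. The median over all 19 was 0.91 TPM. The highest were Slc16a7, which encodes the carrier MCT2, at 19.0 and 15.9 TPM, the ADP-dependent sugar kinase Adpgk at 12.4 and 9.34 TPM, and the urate and sugar transporter Slc2a9 at 9.06 and 6.27 TPM. The lowest detected was Bpgm at 0.74 and 0.99 TPM. Pklr, the liver and red-cell pyruvate kinase, and the testis forms Pgk2 and Gapdhs were at 0 counts. Slc16a7 was higher in both libraries than Slc16a3 and Slc16a1, the carriers of its family among the 34.

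Of 11 genes that admit pyruvate to mitochondrial oxidation, 10 were detected, and the median over all 11 was 5.05 TPM. Mpc1, a subunit of the mitochondrial pyruvate carrier, stood at 24.9 and 25.4 TPM, and Dld and Pdhb, of the pyruvate dehydrogenase complex, at 21.4 and 19.7 and at 16.9 and 13.3 TPM. The lowest detected was the phosphatase gene Pdp2 at 1.81 and 2.45 TPM. All 4 kinases among the 34 genes lay below each of the 3 highest of this list. Those 3 were named for being the highest, and the range of Pdk1 overlapped that of Pdp2. Of 19 genes of the pentose phosphate path and side branches, 18 were detected, and the median over all 19 was 5.47 TPM. They were led by Gfpt1 at 30.7 and 28.2 TPM, Pgd at 34.7 and 24.1 TPM and G6pdx at 17.2 and 15.7 TPM. Gfpt1 opens the hexosamine path, and G6pdx and Pgd make NADPH. Gpd1 was the lowest detected, at 0.37 and 0.23 TPM.

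Of 17 HIF subunits and oxygen-sensing genes, 14 were detected, and the median over all 17 was 9.65 TPM. Os9 stood in the top 10% at 56.0 and 52.2 TPM, followed by the coactivator gene Ep300 at 45.2 and 39.8 TPM and Rack1 at 35.2 and 25.5 TPM. Vhl, the recognition subunit of the ligase that degrades the alpha subunit, was the lowest detected at 3.32 and 2.82 TPM. Arnt, the constant HIF1 partner, stood at 20.8 and 16.5 TPM, and Epas1, which encodes the HIF2 alpha subunit, had 8 and 32 counts. They were named after their values were seen, as the partner and the paralogue of Hif1a. Arnt and Hif1a stood within 1.05-fold of each other in library 1, and Arnt was 1.76-fold higher in library 2.

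Of 30 other known HIF targets, 21 were detected, and the median over all 30 was 2.66 TPM. Vegfa, the angiogenic growth factor, stood at 83.0 and 48.1 TPM, the transferrin receptor gene Tfrc at 45.5 and 57.7 TPM and Cited2, a competitor of HIF1 for its coactivator, at 32.8 and 34.5 TPM. The lowest detected was Ddit4 at 0.57 and 0.49 TPM. Only Nos2, named after its value was seen, was over 2-fold apart between the libraries, at 20.1 and 6.11 TPM and a centred value of -1.30. Vegfa was lower in library 2 at -0.50 and Tfrc higher at 0.61, so these targets did not move one way. Over the detected genes of each list, the median centred value was -0.14 for the isozymes and carriers and 0.13 for pyruvate entry. It was 0.02 for pentose phosphate, -0.06 for HIF subunits and 0.12 for HIF targets, against 0 for all detected protein-coding genes.

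**Figure D5:**
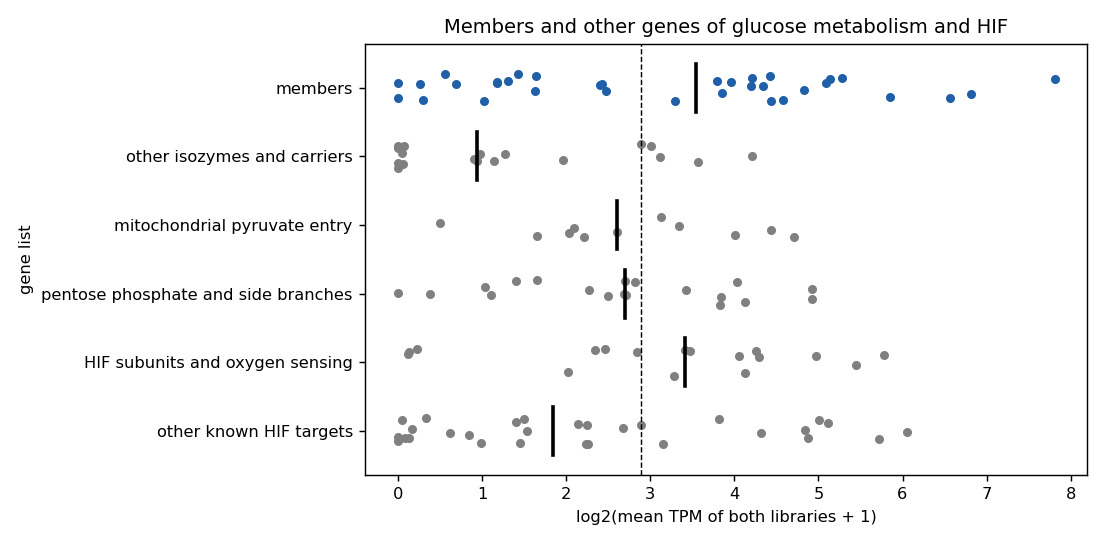
Mean level of both libraries as log2(TPM + 1) for each of the 34 genes (blue) and for each gene of the 5 other lists (grey), with the list median as a bar and the median of detected protein-coding genes as a dashed line. The 34 genes have the highest list median, and the other isozymes and carriers the lowest.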

How the data were processed

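Total RNA of the nuclear fraction was sequenced in 2 libraries of 1 group. The authors deposited 3 tables per library, RSEM values per gene and per transcript and kallisto values per transcript, judged by their column names. The expected count, an estimated count that need not be whole, and TPM were used as the authors deposited them, per the file headers. The labels name the mm10 assembly, and symbols, classes and coordinates came from GENCODE M21. Neither the aligner nor the program versions nor the strand setting is given in the sources used here.

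Library sizes, listed in the report, covered annotated genes only. A gene at 0 counts may hold up to 3 counts. Intervals and floors cover counting error only. Kallisto values were summed per gene. Levels were ranked by mean TPM among 10991 detected protein-coding genes. Differences used a pseudocount of 1 and a 2-fold limit. Simulated data were used only to see whether differences of a set size were recovered. Neither the 2-fold limit nor the choice of pseudocount was tested on them. Copies were found with blastn 2.17.0, and the rest was computed with Python 3.11.15, pandas 2.3.3, numpy 2.4.6 and scipy 1.17.1. With 1 group and no replicate on either side of the RNA input, no test was made and every value is a description. The alternatives were other count minimums, pseudocounts and centring, kallisto, expected counts, coding transcripts alone, each library alone and TPM rescaled over protein-coding genes. The 34 genes and all lists were chosen with earlier results of these data known. Of each further list the 3 highest and the lowest detected genes were named.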

Additional observations from a re-analysis of the deposited data

How the results depend on the processing

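No paired analysis was possible because the study holds 1 group. The number of detected genes lay between 25 and 32 and that in the top 10% between 3 and 5 over all alternatives run. The leading gene of all 10 steps was the same by kallisto and in each library alone. Over coding transcripts alone, an alternative chosen after seeing the data, 8 of 10 remained. The median percentile, 63.1, was 67.6 by kallisto, 54.6 at a minimum of 50 counts and 69.8 over detected genes only, and 58.4 to 65.5 with 1 library left out, where detection also rested on the other library alone. Without centring the 2-fold count of 1 became 5 (Slc2a6, Hk3, Pfkl, Pfkfb3 and Hif1a), where 3.54% of all genes were as far lower. By kallisto it became 0, where 0.264% of all genes were as far lower and 0.628% as far higher. By expected counts, also chosen after seeing the data, it became 2 (Slc2a6 lower and Bnip3 higher). There 2.11% of all genes were as far lower and 1.87% as far higher. The median centred ratio, 0.019, was -0.26 without centring, 0.050 with a pseudocount of 0.1, -0.22 by kallisto, 0.036 at a minimum of 50 counts, -0.11 over coding transcripts and 0.053 by expected counts. It took both signs, and the cause of the differences was not tested. The count of genes mostly in transcripts not annotated as coding rose from 3 to 5 by kallisto, also an alternative chosen after seeing the data. The level of 27 of 34 genes moved by more than the SD between the libraries by kallisto. When TPM was rescaled over protein-coding genes, which multiplies all genes of a library by the same factor, 32 of 34 moved. For Pkm the mean of 93.8 TPM became 40.2 by kallisto and 378 after rescaling, so such moves include changes of scale. The sign of the single ratios was the same by kallisto for 21 of 30 genes. Genes of fewer than 100 counts in either library, among them Bnip3 and the kinases Pdk2 and Pdk3, are limited by depth.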

Other observations

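The counts of RSEM and kallisto lay far apart for some copies of the 34 genes and for Pdk4. A long non-coding gene, AC160336.1, carries a copy of Bnip3 over 94.2% of its leading coding transcript. It held 65.1 and 30 expected counts in libraries 1 and 2, but 27467 and 44278 estimated counts by kallisto, against 33.8 and 60.3 for Bnip3 itself. Vmn2r60, which carries a copy of Gapdh, held 0 expected counts in both libraries and 480 and 475 by kallisto. Peli2, with another such copy, held 279 and 201 expected counts and 384 and 295 by kallisto. Pdk4 stood at 0 expected counts and at 44.9 and 64.1 by kallisto. These genes were named after their values were seen, and the cause of the differences was not tested.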
